A study of Mus musculus with 6 samples.

Results

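The 8 genes described here, Alox12b, Aloxe3, Elovl4, Cyp4f39, Cers3, Pnpla1, Abca12 and Sdr9c7, encode enzymes and a transporter that make the ceramide lipids of the epidermal barrier. They were taken by gene name from a table of 55291 mouse genes, and all 8 were among the 19971 genes with enough counts to be tested. The table came from total RNA of the shaved back skin, labelled dorsal skin, of 3 mice of the tight skin (TSK) line and 3 wild-type (WT) littermates, each sequenced as 1 library. TSK mice carry an internal duplication of Fbn1, which encodes fibrillin 1 of the microfibrils, as a germline allele that is present in every cell type of the skin, and they are used as a model of the skin fibrosis of systemic sclerosis. The labels give the strain as C57BL/6, the genotype as TSK or WT and the age as 6 to 8 weeks for every mouse, with no zygosity. They record the mice as female, whereas the study's methods describe male mice for this experiment, so the sex is uncertain for both groups. The comparison asks how the skin of TSK mice differs from that of WT mice.

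The outermost layer of the skin, the stratum corneum, is sealed by lipid sheets built around acylceramides, which are ceramides with an unusually long fatty acid that carries linoleic acid at its far end. ELOVL4 lengthens the fatty acid, CYP4F39 hydroxylates its end, CERS3 joins it to a sphingoid base, PNPLA1 adds the linoleic acid, and ABCA12 loads the lipids into the lamellar granules of granular keratinocytes. ALOX12B and then ALOXE3 oxidise the linoleic acid, and SDR9C7 oxidises the product further to a form that can be bound to the protein envelope of the cornified cell. Inherited loss of the human counterparts of most of these genes causes ichthyosis, a scaling skin disorder with a leaky barrier.

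Each library held between 17561453 and 19219814 estimated counts, and values are given as CPM (counts per 1e+06 counts of the library) as deposited. Fold changes come from edgeR's quasi-likelihood test on the counts after TMM scaling, which corrects for differences in library composition, and a gene was called changed at a Benjamini-Hochberg adjusted p below 0.05. These factors ranged from 0.823 to 1.03 among WT libraries and from 1.06 to 1.13 among TSK libraries, so that deposited CPM gave larger TSK to WT ratios than the fit. Without this scaling the median over all tested genes was a log2 fold change of 0.25, against -0.03 with it. Fbn1, the mutated gene, was at 272 ± 14.2 CPM in WT and 1943 ± 377 CPM in TSK skin (mean ± SD, n = 3 each), and it had a log2 fold change of 2.54 and an adjusted p of 0.00327. All intervals and errors below are for 3 libraries per group. As bulk skin was sequenced, fewer cells of a type and less RNA per cell cannot be told apart. The study also sequenced single cells of dorsal skin, which were not used here, and reported fewer keratinocytes in TSK mice.

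Sequence upstream of the gene is shown for 3 of the 8 genes: Alox12b and Sdr9c7, because they were the genes that rose, and Elovl4, because it had the highest level and the widest spread among WT mice. Each is 150 bases, read on the coding strand from RefSeq's GRCm38.p6, the build of the deposited coordinates. The stretches lie at chr11:69156839-69156988 on the plus strand (Alox12b), chr10:127898368-127898517 on the plus strand (Sdr9c7) and chr9:83806306-83806455 on the minus strand (Elovl4). The stretches of Alox12b and Sdr9c7 end next to the start in the deposited annotation, which lies upstream of RefSeq's, at positions -84 and -18 from the RefSeq start, and that of Elovl4 ends at -1 from the RefSeq start, which lies upstream of the deposited one. Capitals mark a KLF motif in Alox12b, a TATA motif in Sdr9c7 and AP-2 motifs in Elovl4.
Alox12b: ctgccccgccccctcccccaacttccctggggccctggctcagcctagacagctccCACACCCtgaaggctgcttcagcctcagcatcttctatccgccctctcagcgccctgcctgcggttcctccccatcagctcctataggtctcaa
Sdr9c7: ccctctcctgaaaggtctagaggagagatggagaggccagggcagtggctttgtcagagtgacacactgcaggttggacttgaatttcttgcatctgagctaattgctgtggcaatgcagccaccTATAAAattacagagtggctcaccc
Elovl4: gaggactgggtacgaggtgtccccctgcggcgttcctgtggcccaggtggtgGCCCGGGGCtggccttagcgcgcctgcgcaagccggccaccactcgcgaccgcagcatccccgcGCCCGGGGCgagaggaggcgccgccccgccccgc

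RefSeq gave a promoter for 7 of the 8 genes, and 6 short motifs, chosen after the expression values were seen, were searched on both strands in the 250 bases before each RefSeq start, from which all motif positions are counted. The KLF motif GGGTGTG, read on the other strand, lay 177 to 171 bases before the RefSeq start of Alox12b and was in 6.93% of 32851 RefSeq promoters. The TATA motif TATAAA lay 42 to 37 bases before the RefSeq start of Sdr9c7 and was in 12.4% of promoters. The AP-2 motif GCCNNNGGC was present at -98 and at -34 in Elovl4 and at -12 in Alox12b, and in 13.7% of promoters. The motifs of AP-1 (TGANTCA, 6.75% of promoters), GRHL (AACCNGTT, 1.79%) and the E-box (CACGTG, 6.02%) were in 0 of the 7 windows. A match or its absence describes these letters in this window and was not compared with binding data.

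Of the 8 genes, 2 rose in TSK skin (Alox12b and Sdr9c7) and 0 fell, against 3.39% of all tested genes called in either direction, 2.71% called higher and 0.681% called lower. The log2 fold change was above 0 for 7 of the 8 genes and below 0 for Aloxe3, and its median over the 8 genes was 0.72. At an unadjusted p below 0.05, 7 of the 8 genes passed, all but Elovl4, where 20% of tested genes did so in either direction. On deposited CPM, 7 of the 8 genes had every TSK library above every WT library, a pattern found in 29.1% of all tested genes. After TMM scaling this held for 5 genes, Alox12b, Cyp4f39, Cers3, Pnpla1 and Sdr9c7, against 14.1% of tested genes, and Aloxe3 had every TSK library below every WT library, as did 10.6% of tested genes.

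**Figure D1:**
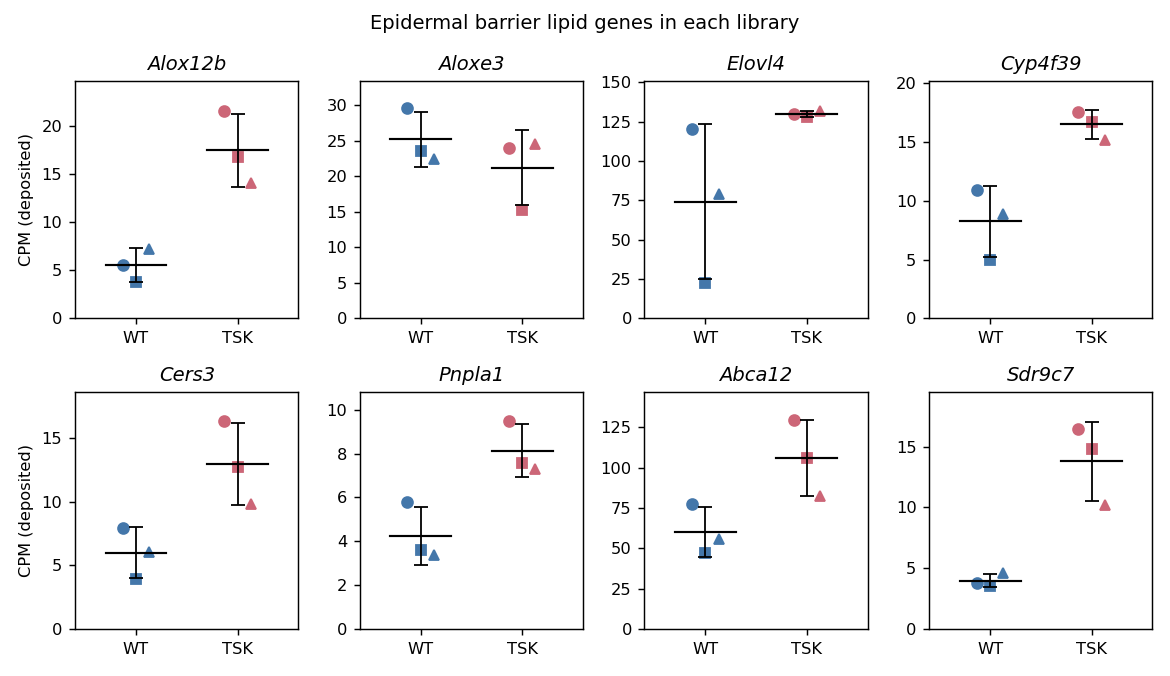
Deposited CPM of the 8 ceramide lipid genes in each library, one panel per gene with its own linear axis from 0. Circles, squares and triangles are replicates 1, 2 and 3, horizontal lines are the mean and whiskers the SD (n = 3 mice per group). TSK libraries lie above WT libraries in 7 panels, the WT points of Elovl4 are spread from 22.4 to 120.5 CPM, and the groups of Aloxe3 overlap.

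Sdr9c7 had the largest fold change of the 8 genes. This gene for a short-chain dehydrogenase of the granular layer lies at chromosome 10, 127898518 to 127911761, on the plus strand. It was at 3.76, 3.57 and 4.56 CPM in WT replicates 1 to 3 and at 16.4, 14.8 and 10.2 CPM in TSK replicates 1 to 3. The groups did not overlap, and the lowest TSK library was above the highest WT library by more than the range within WT. The means were 3.96 ± 0.529 CPM in WT and 13.8 ± 3.25 CPM in TSK, a ratio of 3.49, and the log2 fold change was 1.52 (SE 0.24, 95% interval 0.98 to 2.06, edgeR adjusted p = 0.0171). The call rested on 66 to 83 counts per WT library and 192 to 299 per TSK library. Without WT replicate 3 the adjusted p was 0.0631.

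Alox12b, which encodes the lipoxygenase that starts the oxidation of the linoleic acid, also rose. It was at 5.52, 3.78 and 7.26 CPM in WT and at 21.6, 16.8 and 14.1 CPM in TSK replicates 1 to 3. Every TSK library was above every WT library, with the smallest gap between WT replicate 3 and TSK replicate 3. The means were 5.52 ± 1.74 and 17.5 ± 3.78 CPM, and the log2 fold change was 1.40 (SE 0.26, 95% interval 0.81 to 1.98, edgeR adjusted p = 0.0288). The call was lost in edgeR without WT replicate 2 (adjusted p = 0.0748), WT replicate 3 (0.0561), TSK replicate 1 (0.0619) or TSK replicate 2 (0.0545), with log2 fold changes from 1.19 to 1.68 over the leave-one-out fits.

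Aloxe3, the gene for the partner enzyme that converts the product of ALOX12B, had the only negative fold change of the 8 genes. Its deposited values were 29.7, 23.6 and 22.5 CPM in WT and 24.0, 15.2 and 24.5 CPM in TSK replicates 1 to 3. These groups overlapped, since TSK replicates 1 and 3 lay within the WT range and TSK replicate 2 below it. After TMM scaling the values were 29.0, 28.7 and 25.5 CPM in WT and 22.65, 13.65 and 21.8 CPM in TSK, and the groups no longer overlapped. The log2 fold change was -0.52 (SE 0.19, 95% interval -0.96 to -0.08), with an unadjusted p of 0.026 and an edgeR adjusted p of 0.181, which did not pass. It was -0.32 without TSK replicate 2 and -0.25 with library size as the only scaling, and it stayed below 0 in all 19 alternative fits run.

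Alox12b and Aloxe3 are neighbours on chromosome 11, both on the plus strand, with Aloxe3 at 69125896 to 69149115 and Alox12b at 69156989 to 69169792, 7873 bases further on. Because their ratio within a library does not depend on scaling, it was computed for each mouse. WT skin had 18.6, 16.04 and 32.2 counts of Alox12b per 100 counts of Aloxe3, and TSK skin had 89.8, 110.7 and 57.5. The ratio was higher in every TSK library than in every WT library. Its means were 22.3 ± 8.70 and 86.0 ± 26.8, a difference of 1.96 on the log2 scale. The exact two-sided permutation p was 0.1, the smallest that 3 mice against 3 allow, and 0.212 after adjustment over 17 such ratios. The genes on either side, chosen for their position after values were seen, were at low levels: Alox8 had a log2 fold change of -0.71 (edgeR adjusted p = 0.251) and Hes7 of -0.53 (0.276).

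Elovl4, Cyp4f39 and Cers3 act on the fatty acid and join it to the sphingoid base, and none of the 3 passed the test. Elovl4, the elongase of the longest fatty acids, was at 120.5, 22.4 and 79.1 CPM in WT and at 129.6, 128 and 131.6 CPM in TSK replicates 1 to 3. The TSK libraries were nearly equal (SD 1.82 CPM), while the WT libraries differed (SD 49.2 CPM), with WT replicate 2 far below the rest. Its log2 fold change was 0.59 (SE 0.42, 95% interval -0.37 to 1.55, edgeR adjusted p = 0.481), and it was 0.19 without WT replicate 2 and 1.04 without WT replicate 1. On deposited CPM, WT replicate 2 was also the lowest library for 6 of the 7 sebaceous gland markers, all but Awat2, among them Elovl3 at 0.479 CPM against 8.49 in WT replicate 1 and Far2 at 3.55 against 31.2. After TMM scaling Mc5r was lowest in WT replicate 3 instead, at 4.91 CPM against 4.99 in WT replicate 2. The summed deposited CPM of the spinous and of the granular markers was also lowest in WT replicate 2, at 1456 and 549 CPM. Over the 6 libraries the Pearson r of Elovl4 on log2 TMM CPM with the 7 sebaceous markers is given as a description. It ran from 0.108 (Awat2) to 0.960 (Soat1 and Far2). Elovl3 was at 0.959, Scd1 at 0.499, Mgst1 at 0.597 and Mc5r at 0.628. With the 17 spinous and granular markers r ran from -0.699 (Ivl) to 0.909 (Flg). The median r was 0.628 for the sebaceous and 0.640 for the spinous and granular markers, which does not show this spread. The part of either cell type in the level of Elovl4 was not tested.

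Cyp4f39, the mouse cytochrome P450 that hydroxylates the fatty acid end, was at 10.9, 4.95 and 8.91 CPM in WT and at 17.6, 16.8 and 15.2 CPM in TSK. Its groups did not overlap, and the log2 fold change was 0.75 (SE 0.22, 95% interval 0.25 to 1.25, edgeR adjusted p = 0.0995). Cers3, the ceramide synthase for such fatty acids, was at 7.97, 3.94 and 6.05 CPM in WT and at 16.3, 12.7 and 9.86 CPM in TSK. Its groups did not overlap either, and the log2 fold change was 0.87 (SE 0.25, 95% interval 0.29 to 1.45, edgeR adjusted p = 0.102). DESeq2 called both genes, with adjusted p of 0.0448 for Cyp4f39 and 0.0414 for Cers3.

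Pnpla1, whose product attaches the linoleic acid, was at 5.78, 3.61 and 3.37 CPM in WT and at 9.51, 7.56 and 7.30 CPM in TSK. The groups were separate but the log2 fold change of 0.68 (SE 0.22, 95% interval 0.19 to 1.18) did not pass, with an edgeR adjusted p of 0.127. An antisense gene, Pnpla1os, overlaps 644 of its exonic bases, and 13.4% of the 50-base windows of Pnpla1 also occur in another gene or on the other strand. Pnpla1os itself was at 0.634 to 1.81 CPM (log2 fold change -0.02). Whether strand was used in the counting is not given in the sources used here.

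Abca12, the lipid transporter of the lamellar granule, was at 77.4, 46.9 and 55.7 CPM in WT and at 129.5, 105.9 and 82.6 CPM in TSK. The deposited values did not overlap, but after TMM scaling WT replicate 1, at 75.6 CPM, was above TSK replicate 3, at 73.3 CPM. The log2 fold change was 0.57 (SE 0.20, 95% interval 0.12 to 1.02, edgeR adjusted p = 0.159).

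Levels of different genes were compared as CPM per kilobase of exon. In WT skin the order from high to low was Elovl4 (24.5 ± 16.3), Abca12 (4.05 ± 1.06), Aloxe3 (3.95 ± 0.604), Cyp4f39 (2.89 ± 1.07), Alox12b (2.27 ± 0.715), Cers3 (1.84 ± 0.620), Sdr9c7 (1.30 ± 0.174) and Pnpla1 (0.879 ± 0.274). Of neighbours in this order, the ranges over the 3 libraries did not overlap for Elovl4 and Abca12 and overlapped for every other pair. In TSK skin Elovl4 again came first (42.9 ± 0.602) and Pnpla1 last (1.68 ± 0.250). Between them, Alox12b moved from the fifth place to the second (7.19 ± 1.55) and Aloxe3 from the third to the seventh (3.32 ± 0.821), but neighbours other than the first and the last pair overlapped. Aloxe3 has 6 annotated transcripts of 414 to 4684 bases, so that its level per length depends on which of them is used.

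The 8 genes are mainly expressed by differentiating keratinocytes, and on deposited CPM the summed markers of these layers were higher in every TSK library as well. The 10 markers of granular keratinocytes summed to 549 to 932 CPM in WT and 1382 to 2073 CPM in TSK skin, with 5 of 10 called higher, among them Lor, which encodes loricrin (log2 fold change 1.78, edgeR adjusted p = 0.00913). The 7 spinous markers summed to 1456 to 2293 CPM in WT and 2404 to 4154 CPM in TSK, with 2 of 7 called higher, Dsc1 and Krtdap. For 6 of these 7 the log2 fold change was above 0, and for Krt1 it was -0.23. After TMM scaling the spinous sums overlapped, with WT replicate 1 at 2240 CPM above TSK replicate 3 at 2134 CPM, while the granular sums did not. The 7 basal markers summed to 4103 to 7942 CPM in WT and 3990 to 6322 CPM in TSK, with 0 of 7 called, 1 of 7 at an unadjusted p below 0.05 and a median log2 fold change of -0.40. No gene of these 3 lists was at 0 in all libraries. Among other cell types, 3 of 5 tested inner root sheath genes of the hair follicle, 2 of 6 adipocyte genes and 2 of 8 dermal fibroblast genes were called higher in edgeR. Of the sebaceous gland, macrophage and hair shaft markers 0 were called, with 2 of 7, 3 of 5 and 2 of 2 at an unadjusted p below 0.05. Over all tested genes, 2.71% were called higher and 20% had an unadjusted p below 0.05 in either direction.

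With the mean log2 CPM of the spinous and granular markers as a covariate, the log2 fold changes were 0.58 for Alox12b (edgeR adjusted p = 0.742) and 0.91 for Sdr9c7 (0.559), and 0 of the 8 genes were called. That score was 5.78 to 6.25 in WT and 6.57 to 7.30 in TSK, without overlap, so genotype and the amount of differentiated keratinocyte RNA cannot be told apart in this fit. The 8 skeletal muscle markers made up 14.9% to 21.6% of the counts in WT and 12.8% to 14.6% in TSK libraries. In edgeR 0 of 8 were called and 4 of 8 had an unadjusted p below 0.05, against 20% of all tested genes. With the mean log2 CPM of these markers, which overlapped between groups (12.6 to 13.5 in WT and 12.4 to 12.6 in TSK), as the covariate, Alox12b was at 1.56 (edgeR adjusted p = 0.237) and Sdr9c7 at 1.86 (0.145).

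**Figure D2:**
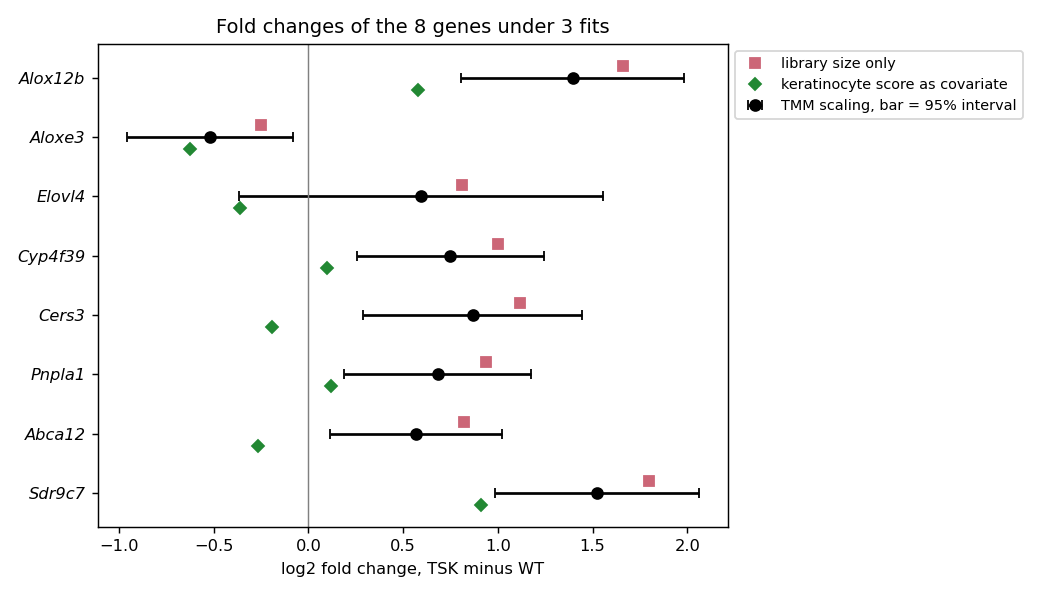
Log2 fold change of TSK against WT for the 8 genes in 3 edgeR fits (n = 3 mice per group): TMM scaling (black circles, lines are 95% intervals), library size only (red squares) and TMM scaling with the keratinocyte score as a covariate (green diamonds). With TMM, Sdr9c7 and Alox12b lie at 1.52 and 1.40, the interval of Elovl4 spans 0 and Aloxe3 lies at -0.52, and with the covariate Elovl4 (-0.36), Cers3 (-0.19) and Abca12 (-0.26) lie below 0.

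Ratios to keratinocyte genes within a library gave a second view that is free of scaling but depends on the gene chosen. Krt10, used here, had a log2 fold change of 0.60, and Krt1, also a spinous marker, had -0.23. Ratios to Krt1 were not computed. Alox12b was at 0.694, 0.728 and 1.03 counts per 100 counts of Krt10, the keratin of the suprabasal layers, in WT and at 1.36, 1.42 and 1.63 in TSK. Sdr9c7 was at 0.472, 0.687 and 0.650 per 100 Krt10 counts in WT and at 1.03, 1.25 and 1.17 in TSK. Both ratios were higher in all TSK libraries. Cers3 was at 0.874 ± 0.122 and 1.08 ± 0.055, also without overlap, and Aloxe3 was lower, at 3.82 ± 0.672 in WT and 1.87 ± 0.835 in TSK. Abca12 kept nearly the same ratio, 8.90 ± 0.902 in WT and 8.87 ± 0.690 in TSK, and Elovl4, Cyp4f39 and Pnpla1 overlapped between groups. Each non-overlapping ratio had an exact two-sided permutation p of 0.1, the smallest possible, and 0.212 after adjustment.

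Against the sum of the 10 granular markers the picture differed by gene. Flg2 alone made up a mean of 439 of 715 CPM of this sum in WT and 1006 of 1721 CPM in TSK. These ratios therefore rest largely on Flg2. Abca12 was at 8.30, 8.55 and 8.40 counts per 100 marker counts in WT and at 6.25, 6.19 and 5.98 in TSK. These groups were narrow and separate, with TSK lower by 0.46 on the log2 scale (log2 difference -0.46). Aloxe3 was also lower, at 3.62 ± 0.591 in WT and 1.27 ± 0.454 in TSK. Sdr9c7 was higher, at 0.580 ± 0.155 in WT and 0.799 ± 0.065 in TSK, and the other 5 genes overlapped, Alox12b included (0.792 and 1.01, exact permutation p = 0.4). The ratios of Abca12, Aloxe3 and Sdr9c7 each had an exact permutation p of 0.1, the smallest possible, and 0.212 after adjustment.

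**Figure D3:**
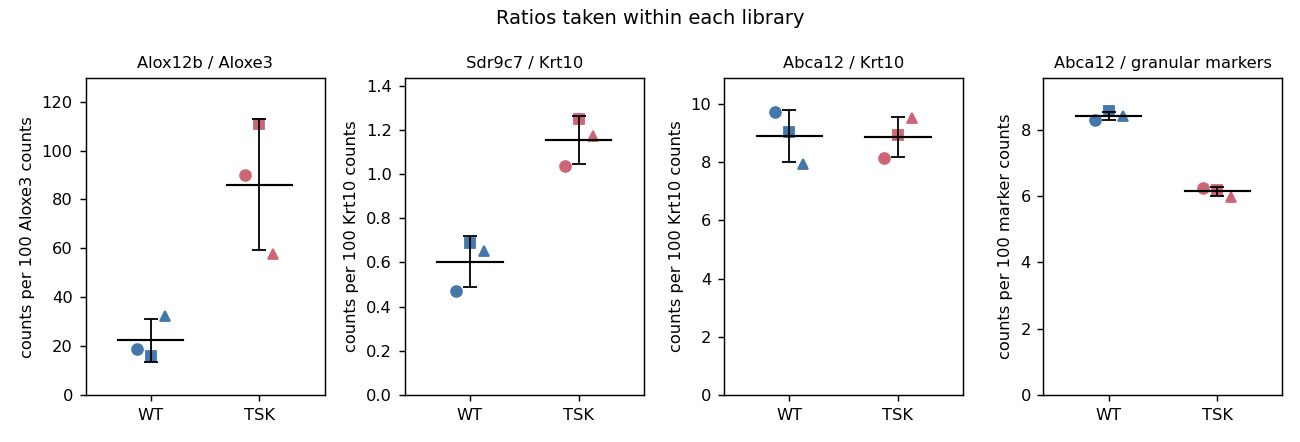
Ratios of counts within each library on linear axes from 0, from left to right Alox12b per 100 Aloxe3, Sdr9c7 per 100 Krt10, Abca12 per 100 Krt10 and Abca12 per 100 counts of the 10 granular keratinocyte markers, with circles, squares and triangles for replicates 1, 2 and 3, horizontal lines for the mean and whiskers for the SD (n = 3 mice per group). TSK libraries are above WT libraries in the plots of Alox12b (57.5 to 110.7 against 16.04 to 32.2) and Sdr9c7, overlap with them for Abca12 per Krt10, and lie below them for Abca12 per granular markers.

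Over the 6 libraries, the 8 genes fell into a set of 7 that varied together and Aloxe3, which ran against them. The 21 pairs without Aloxe3 had a Pearson r on log2 TMM CPM of 0.49 to 0.97 with a median of 0.84, and the 7 pairs with Aloxe3 had an r of -0.77 to -0.43. Cers3 (r = 0.983) and Cyp4f39 (0.965) followed the mean of the other genes most closely. These values describe 6 libraries that share the genotype difference, and after centring within each group the r was 0.962 for Cers3, 0.889 for Cyp4f39, 0.309 for Sdr9c7 and -0.002 for Aloxe3. The mean profile of the 8 genes was lowest in WT replicate 2 and highest in TSK replicate 1.

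Among 17599 genes with a mean of at least 1 CPM, the genes with a profile most like this mean were Sgpp1 (r = 0.998), Bri3bp (0.992), Cnn2 (0.991), Asprv1 (0.990) and Ptgr1 (0.989). Sgpp1 encodes a phosphatase of sphingosine 1-phosphate, and Asprv1 a protease of the granular layer that processes profilaggrin. An r above 0.9 was reached by 2.33% of these genes and by 12 of the 17 spinous and granular markers. The lowest r belonged to Slit1 (-0.992), Gm38077 (-0.989), Ccnt2 (-0.989), Gm37621 (-0.986) and BC065397 (-0.982).

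**Figure D4:**
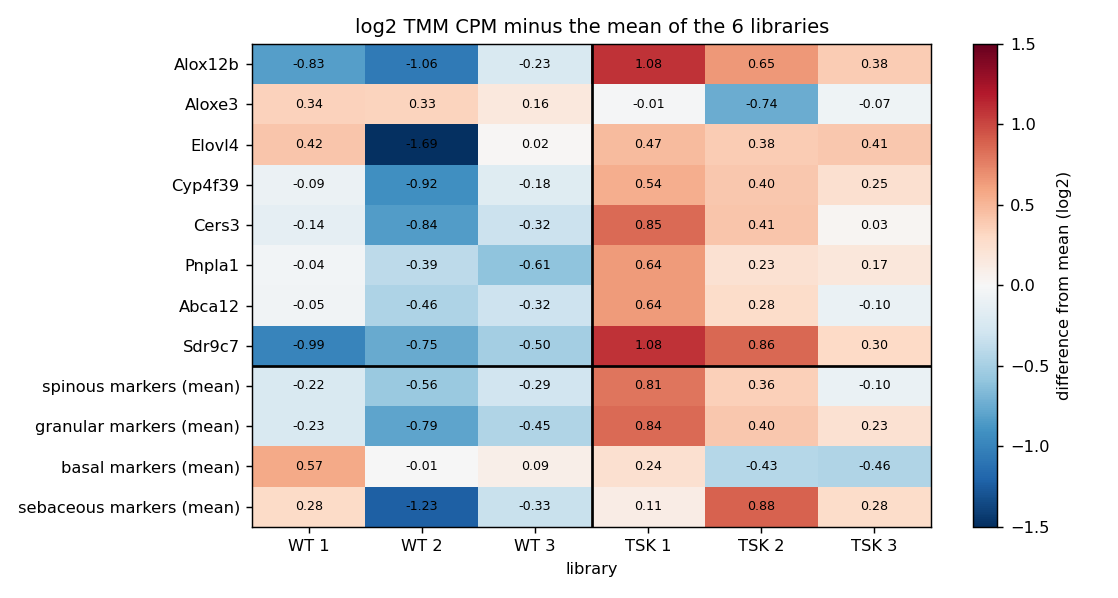
Heat map of log2 TMM CPM minus the mean over the 6 libraries (columns) for the 8 genes (upper rows) and for the mean of the spinous, granular, basal and sebaceous markers (lower rows), with red above and blue below the mean. Elovl4 and the sebaceous markers are lowest in WT replicate 2 (-1.69 and -1.23), as are the spinous and granular markers (-0.56 and -0.79). Aloxe3 is the 1 gene of the 8 that is above its mean in all WT and below it in all TSK libraries.

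The wider pathway was described with a list of 32 other genes, of which 30 were tested. Of these, 2 rose (2.71% of tested genes were called higher) and 0 fell, 26 of 30 had a log2 fold change above 0, and the median was 0.38. Elovl1, an elongase that acts before ELOVL4 in the same chain, was at 37.9, 23.9 and 34.3 CPM in WT and at 84.1, 62.0 and 60.4 CPM in TSK (log2 fold change 0.85, edgeR adjusted p = 0.0479). Tgm1, the transglutaminase that crosslinks the cornified envelope, was at 8.14, 6.44 and 6.82 CPM in WT and at 24.7, 16.02 and 15.6 CPM in TSK (1.13, edgeR adjusted p = 0.0299). All TSK libraries were above all WT libraries for both genes. Elovl1 was not called in edgeR in any of the 6 fits that left out 1 library (adjusted p 0.0507 to 0.137), and Tgm1 was not called without WT replicate 2 (0.0875) or WT replicate 3 (0.125).

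By step, the 7 genes of fatty acid supply and elongation had a median log2 fold change of 0.74, with Elovl1 called. The widest values in this step were those of Fasn, fatty acid synthase, at 318, 3710 and 235 CPM in TSK replicates 1 to 3, so that its log2 fold change of 3.13 (edgeR adjusted p = 0.117) followed TSK replicate 2. Adipocyte markers summed to 1915 CPM in that library and to 409 and 294 CPM in TSK replicates 1 and 3. The 7 tested genes of sphingoid base and ceramide synthesis all had a log2 fold change above 0, with a median of 0.46 and 0 called. An unadjusted p below 0.05 was reached by 4 of 7, against 20% of all tested genes. Among the 7 genes, Sptlc2, a subunit of serine palmitoyltransferase, was at 0.55 (edgeR adjusted p = 0.0751). The 3 genes of glucosylceramide and sphingomyelin synthesis had a median of -0.01 with 0 called and 1 of 3 at an unadjusted p below 0.05. Of the remaining genes, Sult2b1, the sulfotransferase that makes cholesterol sulfate, was at 0.98 (edgeR adjusted p = 0.0593) and Klf4, a transcription factor needed for the barrier, at 0.60 (0.0561). Neither passed.

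**Figure D5:**
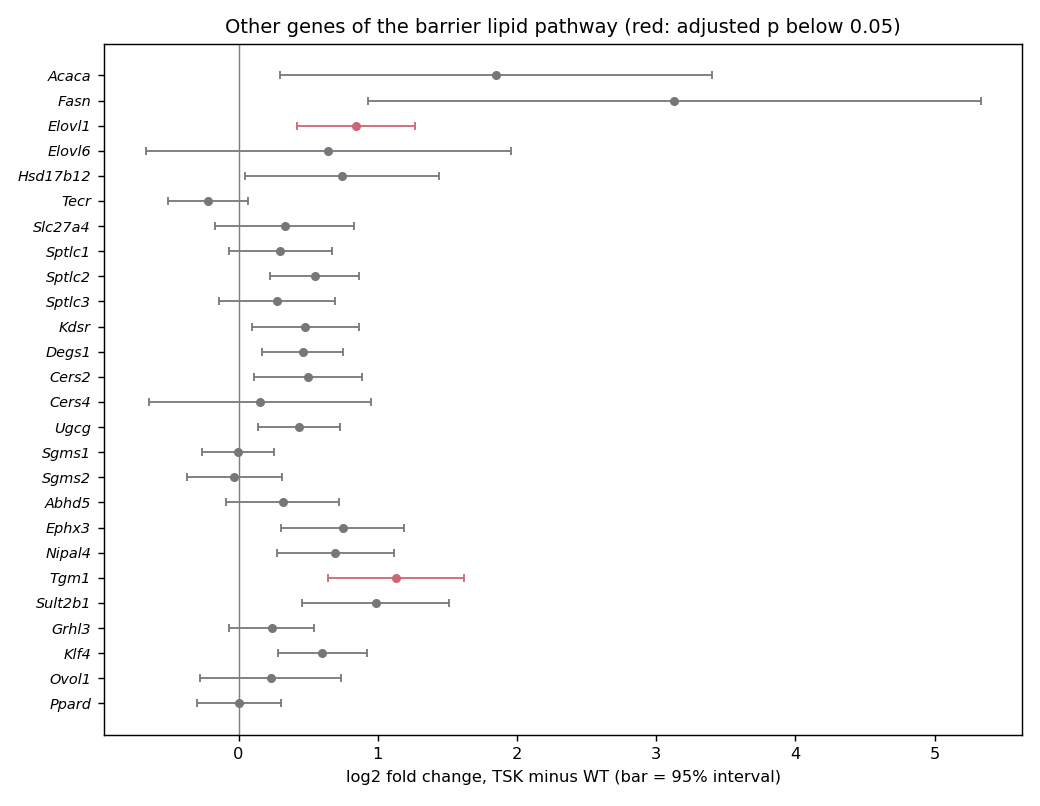
Log2 fold change of TSK against WT with 95% intervals for 26 tested genes of the wider barrier lipid pathway, listed from fatty acid supply at the top to transcription factors at the bottom (edgeR with TMM scaling, n = 3 mice per group). Elovl1 and Tgm1 (red), at 0.85 and 1.13, passed an adjusted p of 0.05, and 23 of the 26 points lie above 0.

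Close relatives of the 8 genes were described in the same way. Of 36 relatives in the lipoxygenase, ceramide synthase, ELOVL, patatin-like phospholipase, CYP4F and ABCA families, 30 were tested. Of these, 2 rose and 0 fell, against 2.71% of all tested genes called higher and 0.681% called lower. The median log2 fold change of the relatives was 0.23. The 2 were Elovl1 and Abca3, a lipid transporter best known from the lung, at 28.5 ± 5.10 CPM in WT and 52.3 ± 1.92 CPM in TSK (log2 fold change 0.61, edgeR adjusted p = 0.025). The relatives with the highest mean CPM of their families over all 6 libraries, not corrected for length, were Alox12e (0.77, edgeR adjusted p = 0.277), Cers6 (0.05, 0.914), Elovl6 (0.65, 0.585), Pnpla2 (0.98, 0.310), Cyp4f13 (-0.16, 0.650) and Abca1 (0.68, 0.0598), none of which passed. Pnpla2 was highest in TSK replicate 2, at 376.8 CPM, and in WT its mean of 78.8 CPM was below the 80.8 CPM of Pnpla8. Cyp4f15 had 0 counts in every library.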

How the data were processed

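Total RNA of dorsal skin from 3 WT and 3 TSK mice was depleted of ribosomal RNA, made into stranded libraries (KAPA) and sequenced as single reads of 50 bases. Per the labels and the study's methods, the authors used bcl2fastq 2.19.1.403, STAR, mm10, Ensembl release 100 and Partek Flow 11.0. The authors deposited estimated counts per gene (43.3% to 45.4% of non-zero values were whole within 0.001, so reads shared between genes may have been split) and CPM, which is those counts scaled to each library's total. The design had foreseen raw counts, so the estimated counts were rounded.

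Groups came from the genotype labels. Counts were fitted in edgeR 4.0.16 (R 4.3.3; filterByExpr, TMM, glmQLFTest, no covariate) over 19971 genes with Benjamini-Hochberg adjustment. Alternatives used DESeq2 1.42.0, limma 3.58.1, other scalings, filters and covariates, a replicate block and leave-one-out fits, at 0.05 and at the study's thresholds (fold above 2.5, adjusted p below 0.01). The fit was tested on simulated counts. Ratios were tested by exact permutation. Log2 CPM used a prior count of 2, and marker lists were described by their counts and summed CPM. No pair of libraries of a group agreed within sampling noise (lowest chi-square per degree of freedom 8.85). Nothing says how the mice relate beyond being littermates, so p-values measure the spread between these libraries.

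The 8 genes and all lists were chosen with earlier results of these data known. Named were the 8 genes, the called genes of the pathway list and the 3 of it with the lowest adjusted p otherwise, the relatives that were called or highest in their family, Fbn1, and the 5 genes most and 5 least like the mean profile. Elovl3, Far2, Awat2, Mc5r, Soat1, Scd1, Mgst1, Fasn, Pnpla8, Alox8, Hes7, Pnpla1os and the single keratinocyte markers named were chosen after their values were seen. Gene positions come from the deposited table and were the same in GENCODE M21 for 52835 of the 53292 genes named there. Promoters are from RefSeq (GRCm38.p6). The genes of 1 pathway step are counted in the pathway totals but not reported here.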

Additional observations from a re-analysis of the deposited data

How the results depend on the processing

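With TMM in edgeR, 542 genes were called higher and 136 lower, 2 of them among the 8 ceramide lipid genes and 2 among the other pathway genes. Genes called higher numbered 1685 with library size only, 1136 in DESeq2, 1771 and 1761 in limma-trend on deposited CPM (pseudocount 1 and 0.1), 1040 without a low-count filter, 101 with the keratinocyte score and 1 with the muscle score as covariate, 51 at the study's thresholds and 45 to 713 leaving out 1 library. Genes called lower numbered 411 in DESeq2, 347 without a filter, 7 with the keratinocyte score, 3 with the muscle score, 7 at the study's thresholds and 15 to 547 leaving out 1 library. Library size only gave 93 lower, so that scaling moved the split between higher and lower. With the keratinocyte covariate 1990 genes, and with the muscle covariate 2258, had an unadjusted p below 0.05.

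Of the 8 ceramide lipid genes, 5 were called higher with library size only, 4 in DESeq2, 6 and 6 in limma-trend, and 0 with either covariate or at the study's thresholds; at an unadjusted p below 0.05, 0 passed with the keratinocyte score and 2 with the muscle score in edgeR. Leaving out 1 library gave 0 to 2 (0 without WT replicate 3). These fits also changed the share of all tested genes called in either direction. That share was 3.39% with TMM, 8.9% with library size only and 4.44% of the 34809 genes in DESeq2. In limma-trend it was 9.37% and 9.31%. Of the other pathway genes, 1 was called with DESeq2's size factors, with upper quartile scaling and in limma-voom, 11 with library size only, 7 in DESeq2, 10 and 10 in limma-trend, 6 without a filter, 0 with either covariate or at the study's thresholds, and 0 to 2 leaving out 1 library. In no fit was one of the 8 or of the pathway genes called lower.

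Of 152 alternative fold changes of the 8 genes, 125 kept direction and side of the threshold, 14 passed it newly, 9 no longer passed and 4 changed sign: with the keratinocyte score Elovl4 (-0.36), Cers3 (-0.19) and Abca12 (-0.26), and with the muscle score Elovl4 (-0.27). The cause was not tested. Deviations of same-numbered libraries correlated at 0.011, 0.167 and -0.094. Libraries of different numbers were not compared, so whether the replicate numbers pair the mice is not known. The replicate block gave 665 genes higher and 129 lower, 2 of the 8 genes and 2 pathway genes, and changed no call among the 8. Depth limits Pnpla1, Sdr9c7 and Alox12b most, at 61.3 to 132 counts per WT library.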
